A study of Mus musculus with 48 samples.

Results

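The proteasome genes described here are the genes of the count table whose mouse symbol starts with Psma, Psmb, Psmc, Psmd, Psme, Psmf or Psmg followed by a digit. There were 48 such genes among 14125, and 47 of them were among the 12592 genes kept by the filter on low counts. They comprise 14 subunits of the constitutive 20S core, 3 immunoproteasome subunits (Psmb8, Psmb9 and Psmb10), 17 subunits of the 19S cap, 4 activators, and 8 assembly factors or inhibitors. The remaining 2 matched by name only: Psmc3ip encodes a factor of meiotic recombination, and Psme2b is a retrocopy of Psme2. Psme2b was the member the filter removed, with 0 to 12 counts per library. Psma8 and Psmb11, the testis and thymus forms of core subunits, were not among the matching genes of the count table.

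The genes were followed in mixed gastrocnemius, a hindlimb muscle, of male C57BL6J mice, in a design that crossed corticosterone, the main glucocorticoid of mice, with atglistatin, an inhibitor of the fat-releasing enzyme ATGL. Cort_ATGLi mice (n = 14) drank 100 µg/ml corticosterone and ate food with 571 mg/kg atglistatin. Cort_CON mice (n = 14) drank the same corticosterone water and ate control food. EtOH_ATGLi mice (n = 10) drank vehicle water with 1% ethanol and ate the atglistatin food, and EtOH_CON mice (n = 10) had vehicle water and control food. Treatment lasted 2 weeks in all groups, and the labels state no age. The labels call 9 of the Cort_CON mice diabetic, and the other 39 mice nondiabetic. The labels do not say whether ethanol was in the corticosterone water too.

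The proteasome degrades proteins tagged with ubiquitin, and in muscle it carries out much of the protein breakdown of atrophy, which glucocorticoids are known to induce. Its 20S core is a barrel of alpha and beta subunits whose beta subunits hold the cutting sites. The 19S cap binds tagged proteins, removes the ubiquitin and unfolds the chain with a ring of ATPases. Interferon signalling is known to replace the cutting subunits Psmb5, Psmb6 and Psmb7 by Psmb8, Psmb9 and Psmb10, which favour peptides for MHC class I presentation, and the activator encoded by Psme1 and Psme2 is induced by the same signal.

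Start-site windows are shown for Psmd8 and Psmd4, the members with the highest positive log2 fold changes under corticosterone on both diets, for Psmb8 and Psmb9, those with the most negative ones, and for Psme1, the activator that was lower on both diets. They come from RefSeq (GRCm38.p6), run from 250 bases before to 50 bases after the start of the gene, and are written 5′ to 3′ on the gene's strand. Capitals mark every match, on either strand, to 6 motifs: the antioxidant response element core TGACNNNGC, the interferon response element (GAAA, 2 bases of any kind, GAAA), the gamma-activated site TTCNNNGAA, the glucocorticoid response element (AGAACA, 3 bases of any kind, TGTTCT), the FoxO element GTAAACA and the CCAAT box CCAAT. None of the capitalised matches overlaps another.
Psmd8, chr7:29180624-29180923, minus strand: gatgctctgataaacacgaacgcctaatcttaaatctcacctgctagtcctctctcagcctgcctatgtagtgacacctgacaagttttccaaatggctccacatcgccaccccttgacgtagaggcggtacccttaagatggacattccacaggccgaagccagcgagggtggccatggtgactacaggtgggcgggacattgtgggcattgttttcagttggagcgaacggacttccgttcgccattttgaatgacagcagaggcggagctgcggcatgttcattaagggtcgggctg
Psmd4, chr3:95042565-95042864, minus strand: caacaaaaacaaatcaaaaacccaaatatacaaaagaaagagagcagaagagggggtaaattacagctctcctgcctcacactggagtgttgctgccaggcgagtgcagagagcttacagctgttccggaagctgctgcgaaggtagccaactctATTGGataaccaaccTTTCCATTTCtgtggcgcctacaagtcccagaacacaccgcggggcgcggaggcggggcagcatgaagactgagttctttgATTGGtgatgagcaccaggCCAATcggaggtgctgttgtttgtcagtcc
Psmb8, chr17:34197945-34198244, plus strand: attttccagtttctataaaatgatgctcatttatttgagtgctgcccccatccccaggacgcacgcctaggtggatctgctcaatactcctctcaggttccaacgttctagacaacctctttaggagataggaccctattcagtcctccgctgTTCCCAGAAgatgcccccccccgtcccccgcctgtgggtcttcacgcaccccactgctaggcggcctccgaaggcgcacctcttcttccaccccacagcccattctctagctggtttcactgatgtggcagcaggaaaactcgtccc
Psmb9, chr17:34187281-34187580, minus strand: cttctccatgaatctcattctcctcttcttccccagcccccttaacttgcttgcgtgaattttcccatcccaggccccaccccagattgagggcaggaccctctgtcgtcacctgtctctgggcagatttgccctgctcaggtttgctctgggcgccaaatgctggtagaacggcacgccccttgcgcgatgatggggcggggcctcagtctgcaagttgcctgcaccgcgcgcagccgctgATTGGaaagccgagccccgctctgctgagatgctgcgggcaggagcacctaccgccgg
Psme1, chr14:55578244-55578543, plus strand: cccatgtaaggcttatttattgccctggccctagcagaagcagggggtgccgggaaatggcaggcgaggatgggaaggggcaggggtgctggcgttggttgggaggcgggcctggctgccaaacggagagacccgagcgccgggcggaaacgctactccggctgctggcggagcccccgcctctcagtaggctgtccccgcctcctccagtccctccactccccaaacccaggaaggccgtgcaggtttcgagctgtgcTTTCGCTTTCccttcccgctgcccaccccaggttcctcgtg
The Psmd8 window holds none of the 6 motifs. The Psmd4 window holds 1 interferon response element and 3 CCAAT boxes, the Psmb8 window 1 gamma-activated site, the Psmb9 window 1 CCAAT box, and the Psme1 window 1 interferon response element just after the start site. The RefSeq windows of Psmb8, Psmb9 and Psme1 lie wholly inside the GENCODE spans of these genes.

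Windows were found for 41 of the 48 members, 25 of them constitutive 20S or 19S genes. The antioxidant response element core, the letters that Nfe2l1 and Nfe2l2 (Nrf1 and Nrf2) recognise, was in 4 of these 25 windows (Psmb5, Psmb6, Psmc6 and Psmd12) and in 12.4% of all 32851 windows. The CCAAT box was in 10 of the 25 and in 37.4% of all windows. The interferon response element was found for 5 members (Psme1, Psmb3, Psmd4, Psmd9 and Psmg4) and in 3.44% of all windows, and the gamma-activated site for Psmb8, Psmd2 and Psmg1 and in 8.30% of all windows. No member window held the FoxO element, which was in 3.65% of all windows, or the glucocorticoid response element, which was in 0.00913%. These matches describe letters only.

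Total counts per library ran from 10453888 to 24034481. Since glucose and insulin are listed separately for every library, a library stands for 1 mouse. Levels are CPM, counts scaled to library size with trimmed-mean-of-M-values factors, and since libraries were primed at transcript ends they were not divided by gene length. A log2 difference is the log2 fold change of the first group over the second, with its standard error (SE). A gene was called higher or lower at an adjusted p under 0.05. The 10 skeletal muscle fibre markers summed to 89441 to 175285 CPM across the 48 libraries. The lowest mean correlations of a library with its own group were 0.953 for p01 of EtOH_CON and 0.954 for p41 of Cort_ATGLi, and members whose calls changed without p01 or p41, in a comparison that holds that library, are named where they are described. In the map of all members, p01 was low for Psmc1, Psmc3, Psmd7, Psmd13 and Psma4 and high for Psmd3 and Psme3, and p41 was among the highest for most 19S genes. The labels list an insulin of 2.19 for p41, the lowest of Cort_ATGLi, and 5.67 for p48, the next lowest. Its part in the levels of p41 was not tested.

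**Figure D1:**
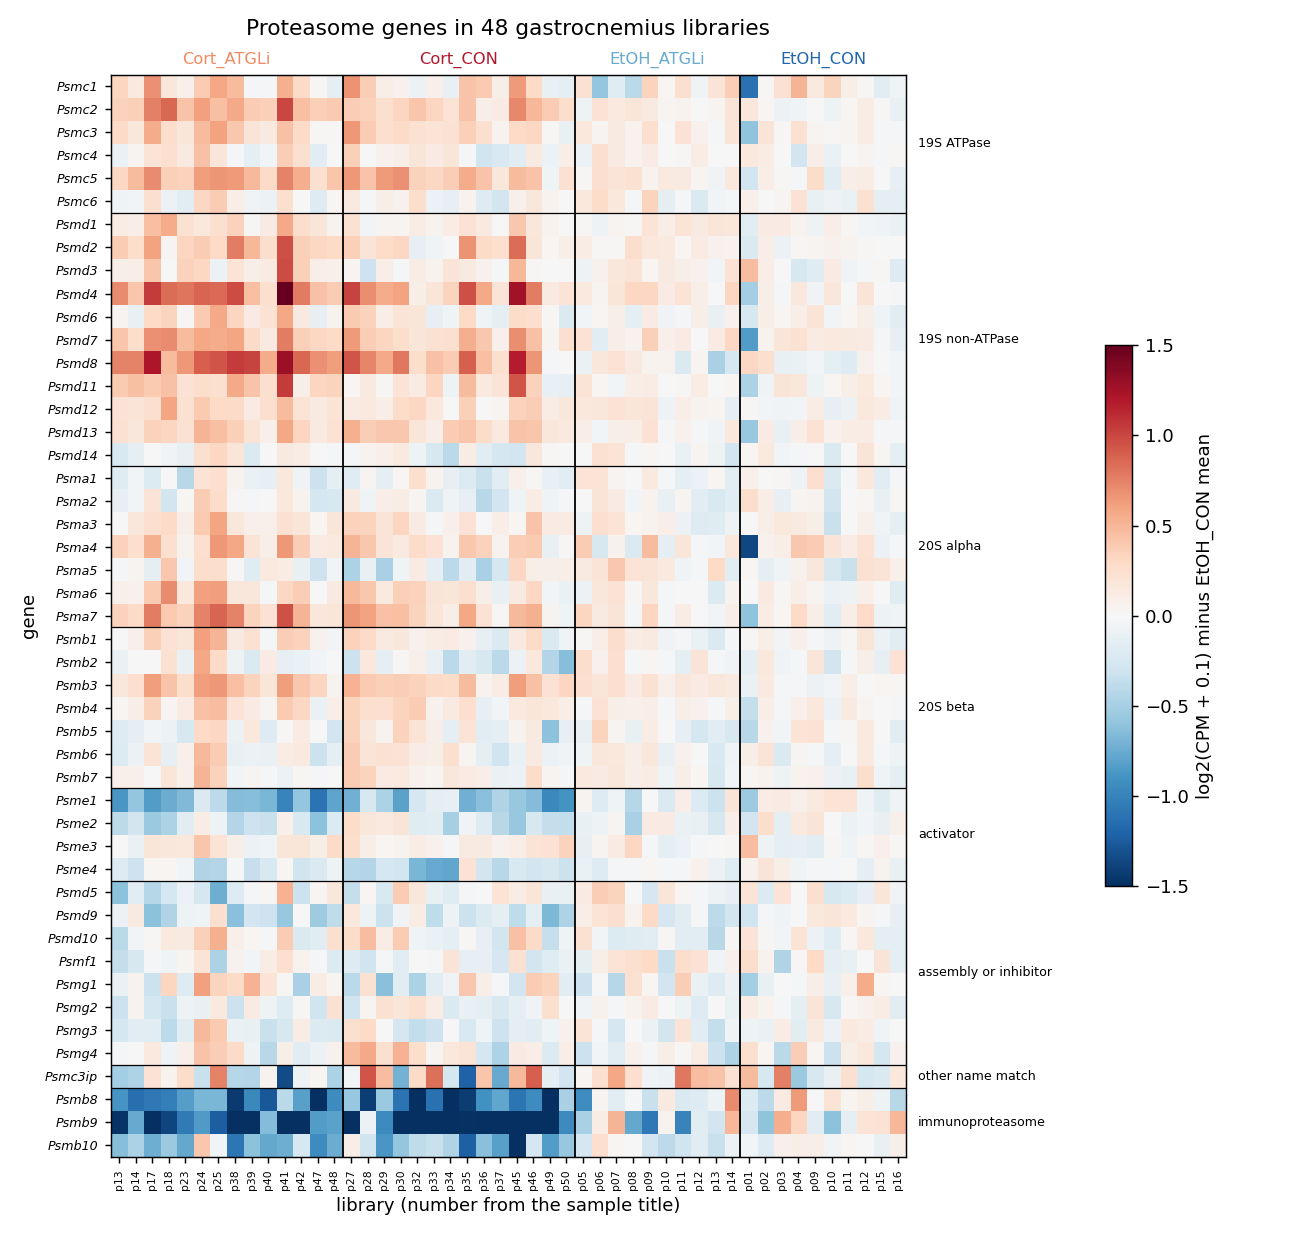
Level of 47 proteasome genes (rows, by class) in 48 libraries (columns, by group), as log2(CPM + 0.1) minus the mean of EtOH_CON. Rows of 19S genes such as Psmd8 and Psmd4 are red in most corticosterone libraries, the rows of Psme1, Psmb8, Psmb9 and Psmb10 are blue there, and the assembly factors show no such blocks. The colour scale ends at 1.5 in each direction.

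The constitutive core and cap genes that passed were all higher under corticosterone, and the immunoproteasome genes were all lower. On the control diet (Cort_CON against EtOH_CON), 14 of the 47 members tested were higher and 5 were lower, beside 18.9% of all genes higher and 19.5% lower (38.4% in all). The median member had a log2 fold change of 0.09, against -0.0011 over all genes. Of the 17 subunits of the 19S cap 9 were higher and none was lower, and of the 14 constitutive core subunits 5 were higher and none was lower. All 3 immunoproteasome genes and 2 of 4 activators were lower, and none of the 8 assembly factors passed. At a mean of at least 5 CPM, which tests fewer genes and leaves out Psmb8 and Psmb9, the core subunit Psmb2 and the assembly factor Psmd9 were lower. Among called members and leading companion genes, 8 calls over both diets no longer passed there, and they are not marked as such in the descriptions below. On the atglistatin diet (Cort_ATGLi against EtOH_ATGLi), 16 members were higher and 4 were lower, beside 15% of all genes in each direction (30% in all), with a median of 0.13 against -0.0016. There 11 of 17 cap subunits and 5 of 14 core subunits were higher, all 3 immunoproteasome genes and 1 of 4 activators were lower, and again no assembly factor passed. The comparisons use different libraries, and 13 members were higher and 4 lower in both, beside 12.3% of all genes higher and 12.2% lower in both. In bulk muscle, fewer cells of a type and less RNA per cell cannot be told apart. These counts rest on scaled libraries: without scaling factors the median of all genes on the control diet was -0.11, and 6 members were higher and 12 lower there, with 11 higher and 6 lower on the atglistatin diet. On the control diet Psmc3, Psmb4, Psmd2, Psmd12, Psma6, Psma7, Psmd7 and Psma3 then no longer passed, and the constitutive genes Psma1, Psma2, Psmb2 and Psmd14, the assembly factors Psmd9 and Psmg3 and the activator Psme2 were lower. On atglistatin Psmc3, Psmb1, Psmd12, Psmd6 and Psma3 no longer passed, and Psmd9 and Psme2 were lower. No member called with scaling changed its sign without it.

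**Figure D2:**
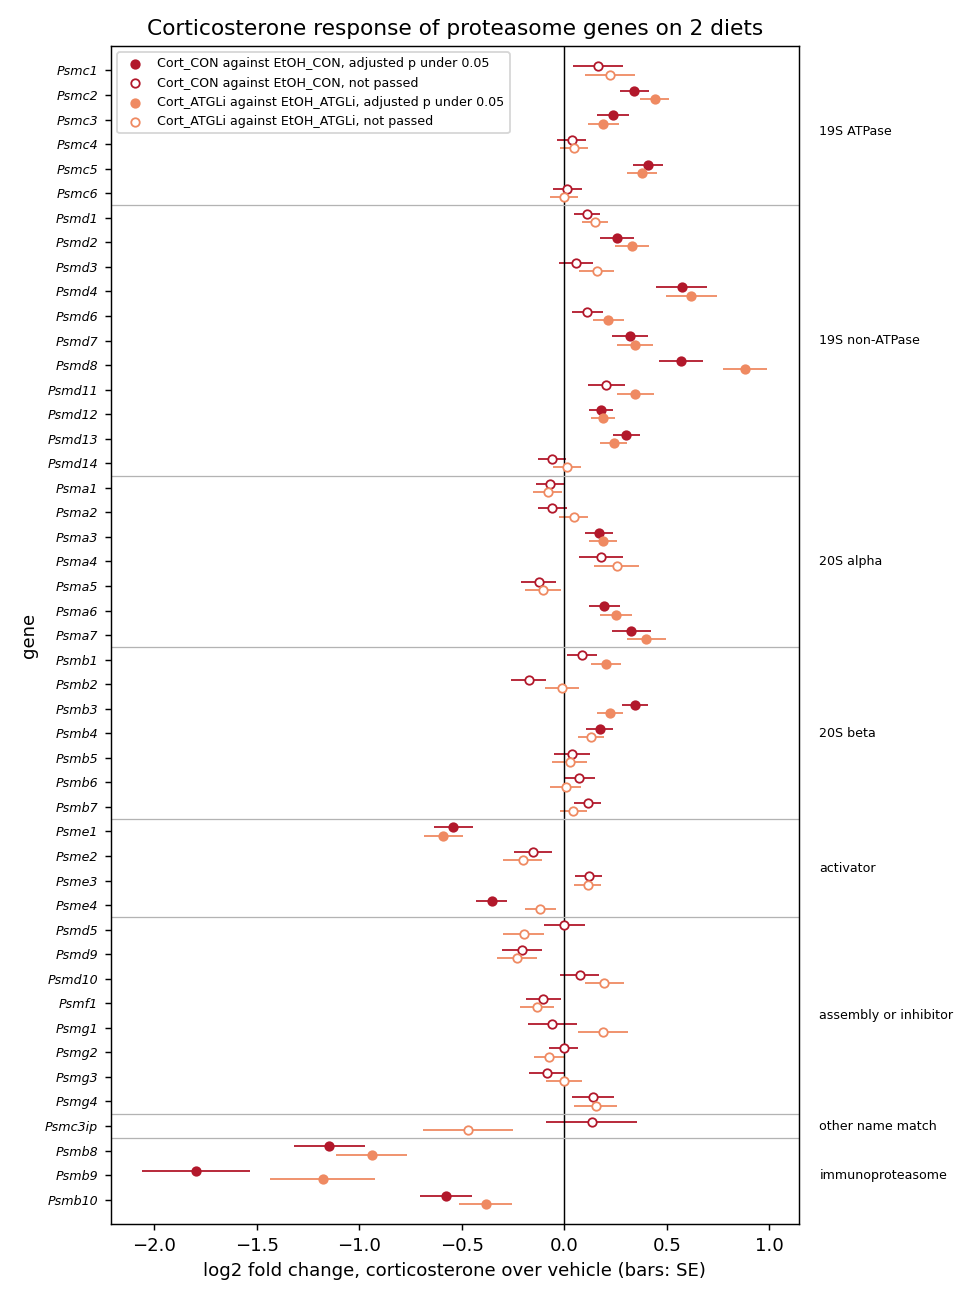
Log2 fold change of corticosterone over vehicle with its standard error (horizontal axis) for 47 proteasome genes (rows, by class) on the control diet (dark red) and the atglistatin diet (orange). Filled points passed an adjusted p of 0.05. The 19S cap lies mostly right of 0, up to 0.57 and 0.88, and the 3 immunoproteasome genes lie left of it on both diets.

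In the 19S cap, Psmd8 and Psmd4 had the largest rises. Psmd8 (chr7:29174188-29180701, minus strand) encodes a subunit of the lid, the part of the cap that removes ubiquitin chains. Its lowest, median and highest levels were 405, 586 and 933 CPM in Cort_CON, against 361, 401 and 512 CPM in EtOH_CON. On atglistatin they were 573, 719.8 and 1001 CPM in Cort_ATGLi, against 294, 425 and 477 CPM in EtOH_ATGLi. All Cort_ATGLi libraries lay above all EtOH_ATGLi libraries, while 12 of 14 Cort_CON libraries lay above the EtOH_CON mean and the ranges overlapped. Psmd8 rose with a log2 difference of 0.57 (SE 0.11, adjusted p = 1.72e-05) on the control diet and a log2 difference of 0.88 (SE 0.11, adjusted p = 2.22e-09) on atglistatin. The difference between these rises, 0.31 (SE 0.15), did not pass (adjusted p = 0.897).

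Psmd4 (chr3:95032694-95042614, minus strand) encodes a ubiquitin receptor of the cap. It ranged over 218, 304 and 493 CPM (lowest, median, highest) in Cort_CON, against 144, 206 and 234 CPM in EtOH_CON. Each of the 14 Cort_CON libraries lay above the EtOH_CON mean, but the ranges overlapped. Psmd4 rose with a log2 difference of 0.57 (SE 0.12, adjusted p = 1.83e-04). In Cort_ATGLi the levels were 243, 355 and 670.3 CPM, against 206, 230.3 and 257 CPM in EtOH_ATGLi, a log2 difference of 0.62 (SE 0.12, adjusted p = 8.83e-05). The highest Cort_ATGLi value was that of p41 and the lowest EtOH_CON value that of p01. With each library left out in turn, the log2 difference of Psmd4 stayed between 0.50 and 0.60 on the control diet and between 0.52 and 0.66 on atglistatin, and passed each time.

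Psmc2 and Psmc5 are subunits of the ATPase ring that unfolds proteins and opens the core. Psmc2 (chr5:21785283-21803787, plus strand) was at 155, 183 and 239.7 CPM in Cort_CON, against 134, 147 and 163 CPM in EtOH_CON, a log2 difference of 0.34 (SE 0.07, adjusted p = 7.53e-05). In Cort_ATGLi it was at 184, 197 and 291 CPM, against 138, 155 and 169.6 CPM in EtOH_ATGLi, a log2 difference of 0.44 (SE 0.07, adjusted p = 1.24e-06). The groups overlapped on the control diet and not on atglistatin. Psmc5 (chr11:106256154-106263120, plus strand) showed the same arrangement. Its levels were 78.0, 109.8 and 132 CPM in Cort_CON, against 66.6, 82.3 and 99.2 CPM in EtOH_CON, a log2 difference of 0.41 (SE 0.07, adjusted p = 6.06e-06). On atglistatin they were 96.7, 114 and 137 CPM in Cort_ATGLi, against 78.8, 90.1 and 96.4 CPM in EtOH_ATGLi, a log2 difference of 0.38 (SE 0.07, adjusted p = 3.30e-05). Psmd8, Psmc2 and Psmc5 were the 3 members whose groups did not overlap on atglistatin, beside 3.45% of all genes.

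**Figure D3:**
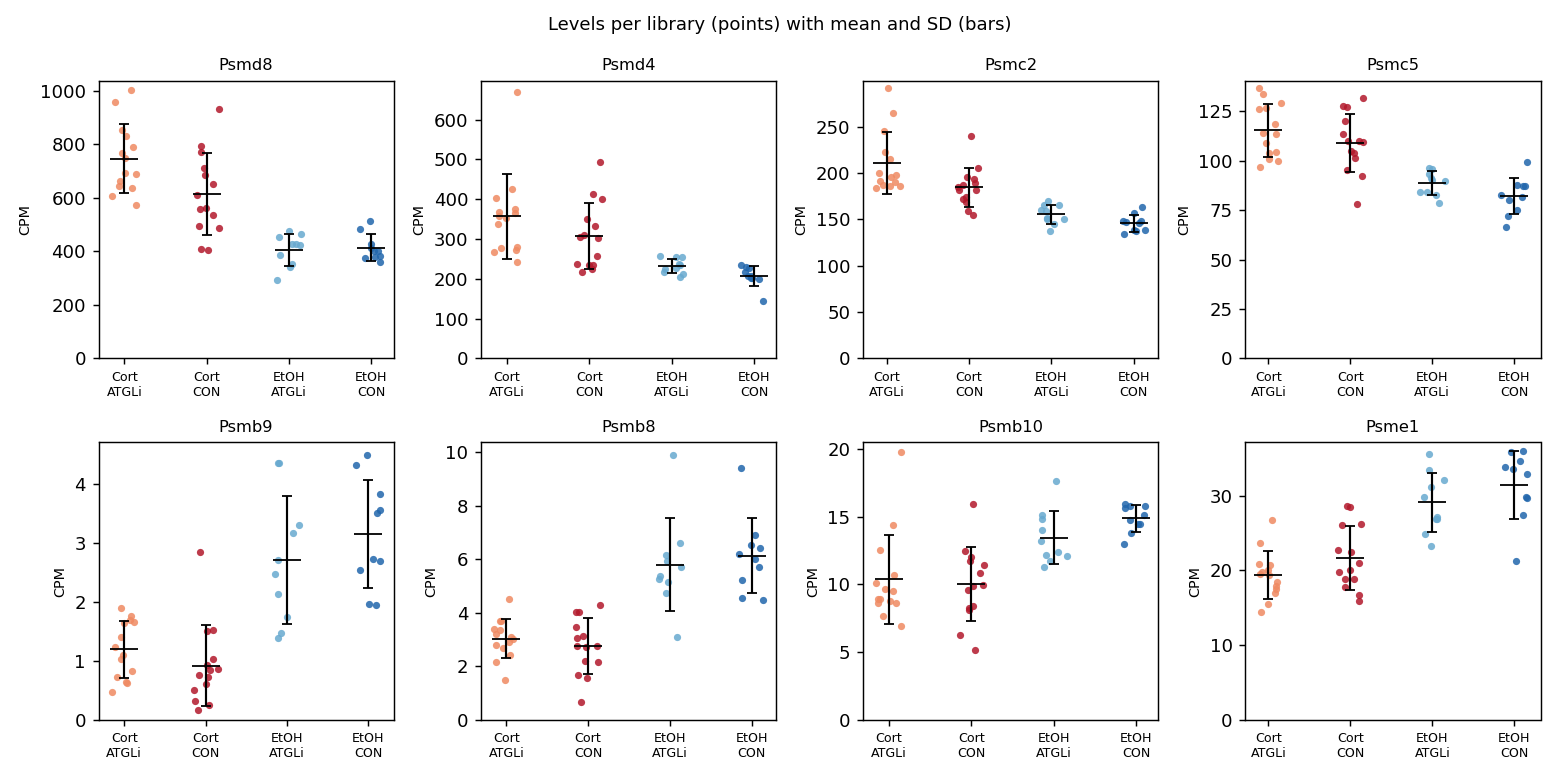
CPM of 8 proteasome genes in each library (points), by group, with the group mean and SD (bars); each vertical axis starts at 0. Psmd8, Psmd4, Psmc2 and Psmc5 are higher in the corticosterone groups, with Psmd8 means of 746.6 and 615 CPM in Cort_ATGLi and Cort_CON, and Psmb9, Psmb8, Psmb10 and Psme1 are lower.

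The other ATPases did not move as a block. Psmc3 was higher on both diets, by 0.24 and 0.19 on the log2 scale on the control and atglistatin diets. Its atglistatin call was marginal (adjusted p = 0.0483) and was lost when any 1 of 17 libraries was left out, p41 among them, at up to 0.0990. Psmc3 also overlaps Slc39a13 on the other strand at its 3′ end, and since the strand setting of the counting is not given, reads of the pair could be mixed. Psmc1, Psmc4 and Psmc6 did not pass on either diet, with log2 fold changes from 0.02 to 0.16 on the control diet and from -0.00 to 0.22 on atglistatin. Among the lid and scaffold subunits, Psmd2, which docks shuttle proteins, and the lid subunits Psmd7, Psmd12 and Psmd13 were higher on both diets. Their log2 fold changes were 0.26, 0.32, 0.18 and 0.30 on the control diet and 0.33, 0.34, 0.19 and 0.24 on atglistatin, in the same order. Psmd6 and Psmd11 passed on atglistatin, with a log2 difference of 0.22 (SE 0.08, adjusted p = 0.0256) for Psmd6 and a log2 difference of 0.35 (SE 0.09, adjusted p = 0.00233) for Psmd11. On the control diet they had 0.11 (adjusted p = 0.250) and 0.21 (adjusted p = 0.0663), and the interaction passed for neither. The Psmd6 call was lost without p25 or p41 of Cort_ATGLi (adjusted p up to 0.0575). Psmd11 passed on the control diet without p49 or p50 of Cort_CON, and in the fit without p41 of Cort_ATGLi (0.20, adjusted p = 0.0416). Psmd1, Psmd3 and Psmd14, the deubiquitinase of the lid, did not pass on either diet. On atglistatin Psmd1 had 0.15 (adjusted p = 0.0625), and it passed by DESeq2 (adjusted p = 0.0374) and without p24, p39, p40 or p48 of Cort_ATGLi (down to 0.0418). Summed over the 17 genes, the cap ran over 2661, 3134 and 4220.0 CPM (lowest, median, highest library) in Cort_CON, against 2334, 2628 and 2788 CPM in EtOH_CON, and over 3039.8, 3432 and 4853 CPM in Cort_ATGLi, against 2537, 2706 and 2944 CPM in EtOH_ATGLi.

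In the 20S core 5 of 14 genes rose on each diet, by at most 0.35 and 0.40 on the log2 scale on the control and atglistatin diets. Psma7, an alpha subunit (chr2:180036374-180042433, minus strand), was at 185, 252 and 306 CPM in Cort_CON, against 127, 201 and 237 CPM in EtOH_CON, a log2 difference of 0.33 (SE 0.10, adjusted p = 0.00480). In Cort_ATGLi it was at 218, 249.6 and 375 CPM, against 188, 208 and 241 CPM in EtOH_ATGLi, a log2 difference of 0.40 (SE 0.10, adjusted p = 8.45e-04). The groups overlapped on both diets, although 14 of 14 Cort_ATGLi libraries lay above the EtOH_ATGLi mean. Psmb3, a beta subunit with no cutting site of its own (chr11:97703399-97713500, plus strand), was at 83.0, 102 and 123 CPM in Cort_CON, against 74.4, 79.3 and 88.5 CPM in EtOH_CON, a log2 difference of 0.35 (SE 0.06, adjusted p = 1.40e-05). On atglistatin it was at 82.9, 104 and 125 CPM in Cort_ATGLi, against 84.0, 89.98 and 95.1 CPM in EtOH_ATGLi, a log2 difference of 0.22 (SE 0.06, adjusted p = 0.00529). Psma3 and Psma6 were also higher on both diets, at 0.17 and 0.20 on the control diet and 0.19 and 0.25 on atglistatin. On the control diet these were fragile: the Psma3 call was lost without any 1 of 11 libraries, p01 among them (adjusted p up to 0.124) and the Psma6 call without any 1 of 13 (up to 0.0868). On atglistatin the Psma3 call was lost without p05, p11, p12 or p13 of EtOH_ATGLi or p25 of Cort_ATGLi (adjusted p up to 0.0667), and Psma3 overlaps 3110056K07Rik on the other strand at its 3′ end. Psmb4 passed on the control diet (0.17, adjusted p = 0.0294), but not without p01, p10 or p16 of EtOH_CON or p27, p30 or p32 of Cort_CON (adjusted p up to 0.0851). Psmb1 passed on atglistatin (0.20, adjusted p = 0.0258), but not without p12 or p13 of EtOH_ATGLi or p24 or p25 of Cort_ATGLi (adjusted p up to 0.0622). Psma1, Psma2, Psma4, Psma5 and Psmb2 did not pass on either diet. Psma4 had 0.26 on atglistatin (adjusted p = 0.0693) and passed in the fit without p01 of EtOH_CON (0.26, adjusted p = 0.0138) and without p05 or p09 of EtOH_ATGLi. Psmb2 had -0.17 on the control diet, which did not pass, and was lower at a mean of at least 5 CPM (-0.22, adjusted p = 0.0189) and without p10 of EtOH_CON or p28 or p46 of Cort_CON.

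The constitutive cutting subunits were not among the core genes that rose. Psmb5, which carries the chymotrypsin-like activity, was at 15.5, 25.1 and 30.4 CPM in Cort_CON, against 17.9, 24.01 and 27.6 CPM in EtOH_CON, a log2 difference of 0.04 (SE 0.09, adjusted p = 0.765). On atglistatin it was at 19.5, 22.8 and 29.6 CPM in Cort_ATGLi, against 19.8, 22.1 and 29.99 CPM in EtOH_ATGLi, a log2 difference of 0.03 (SE 0.09, adjusted p = 0.850). Psmb6 carries the caspase-like activity. It was at 127, 167 and 203 CPM in Cort_CON, against 134, 156 and 178 CPM in EtOH_CON, a log2 difference of 0.07 (SE 0.08, adjusted p = 0.474), and at 125, 147 and 218 CPM in Cort_ATGLi, against 133, 160.1 and 176 CPM in EtOH_ATGLi, a log2 difference of 0.01 (SE 0.08, adjusted p = 0.961). Psmb7 carries the trypsin-like activity. It was at 237, 274 and 331 CPM in Cort_CON, against 232, 252 and 305 CPM in EtOH_CON, a log2 difference of 0.12 (SE 0.07, adjusted p = 0.161), and at 239.6, 260.1 and 362 CPM in Cort_ATGLi, against 215, 271 and 286 CPM in EtOH_ATGLi, a log2 difference of 0.04 (SE 0.07, adjusted p = 0.655). In each of these 6 pairs the groups overlapped, and Psmb7 shares its 3′ end with Nek6 on the other strand. The summed level of the 14 core genes was 1444, 1736 and 2006 CPM (lowest, median, highest) in Cort_CON, against 1419, 1537 and 1719 CPM in EtOH_CON, and 1518, 1721 and 2199.8 CPM in Cort_ATGLi, against 1421, 1595 and 1737 CPM in EtOH_ATGLi.

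**Figure D4:**
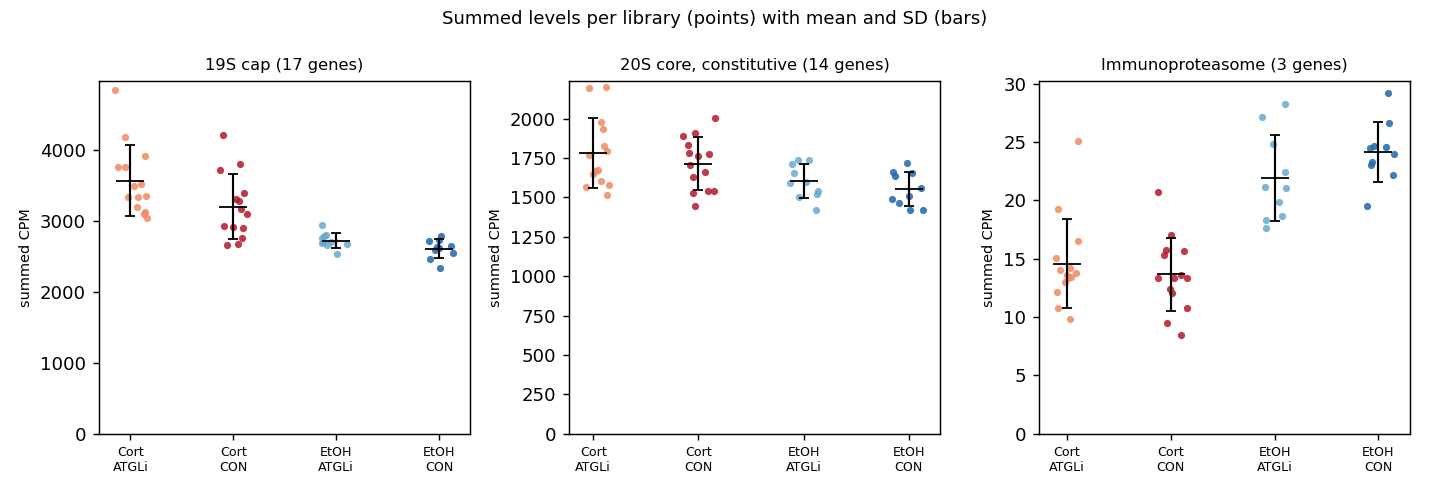
Summed CPM of the 19S cap, the constitutive 20S core and the immunoproteasome in each library (points), by group, with mean and SD (bars); axes start at 0. The cap averages 3572 and 3205 CPM in Cort_ATGLi and Cort_CON against 2727 and 2609 CPM in EtOH_ATGLi and EtOH_CON, and the immunoproteasome averages 14.6 and 13.7 CPM in Cort_ATGLi and Cort_CON against 21.9 and 24.2 CPM in EtOH_ATGLi and EtOH_CON.

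All 3 immunoproteasome genes fell under corticosterone. Psmb9 (chr17:34181987-34187764, minus strand), whose product replaces Psmb6, had the most negative log2 fold change of any member. It was at 0.170, 0.806 and 2.84 CPM in Cort_CON, against 1.94, 3.12 and 4.49 CPM in EtOH_CON, a log2 difference of -1.80 (SE 0.26, adjusted p = 1.25e-07). On atglistatin it was at 0.467, 1.17 and 1.90 CPM in Cort_ATGLi, against 1.39, 2.59 and 4.35 CPM in EtOH_ATGLi, a log2 difference of -1.18 (SE 0.26, adjusted p = 2.61e-04). All 14 libraries of each corticosterone group lay below the mean of their vehicle group, and the ranges overlapped on both diets. These levels rest on 2 to 36 counts per corticosterone library and 20 to 76 per vehicle library, so single values are imprecise. All deposited counts outside p13 of EtOH_ATGLi were even for a cause not given, so these counts may stand for fewer reads.

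Psmb8 (chr17:34197721-34201454, plus strand), which replaces Psmb5 and lies near Psmb9 in the MHC region, was at 0.652, 2.75 and 4.27 CPM in Cort_CON, against 4.47, 6.09 and 9.40 CPM in EtOH_CON, a log2 difference of -1.15 (SE 0.17, adjusted p = 2.38e-07). It was the 1 member whose groups did not overlap on the control diet, beside 4.71% of all genes. On atglistatin the groups overlapped, at 1.502, 3.05 and 4.50 CPM in Cort_ATGLi, against 3.10, 5.53 and 9.90 CPM in EtOH_ATGLi, a log2 difference of -0.94 (SE 0.17, adjusted p = 1.72e-05). Psmb10 (chr8:105935735-105938444, minus strand), which replaces Psmb7, fell least of the 3. It was at 5.16, 9.92 and 15.9 CPM in Cort_CON, against 13.01, 14.9 and 15.96 CPM in EtOH_CON, a log2 difference of -0.58 (SE 0.13, adjusted p = 2.01e-04). In Cort_ATGLi it was at 6.94, 9.22 and 19.7 CPM, against 11.3, 12.8 and 17.6 CPM in EtOH_ATGLi, a log2 difference of -0.38 (SE 0.13, adjusted p = 0.0172), and its groups overlapped on both diets. The falls of Psmb8, Psmb9 and Psmb10 kept their calls with each library left out in turn. The differences of these falls between diets were 0.21, 0.62 and 0.19 for Psmb8, Psmb9 and Psmb10, and none passed (adjusted p = 0.967 or above).

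Set against the subunit it replaces, each immunoproteasome gene was lower in most corticosterone libraries. The log2 ratio of counts (each + 1) of Psmb8 to Psmb5 was -5.24, -3.13 and -2.35 (lowest, median, highest) in Cort_CON, against -2.44, -1.99 and -1.54 in EtOH_CON, and -3.93, -2.97 and -2.41 in Cort_ATGLi, against -2.79, -1.99 and -1.02 in EtOH_ATGLi. For Psmb9 to Psmb6 it was -9.39, -7.62 and -5.92 in Cort_CON, against -6.46, -5.70 and -4.88 in EtOH_CON, and -8.37, -6.96 and -6.18 in Cort_ATGLi, against -6.92, -5.77 and -5.09 in EtOH_ATGLi. For Psmb10 to Psmb7 it was -5.51, -4.76 and -4.37 in Cort_CON, against -4.36, -4.05 and -3.87 in EtOH_CON, and -5.14, -4.82 and -4.19 in Cort_ATGLi, against -4.49, -4.27 and -3.96 in EtOH_ATGLi. Median ratios were lower in each corticosterone group than in its vehicle group for all 3 pairs. The Psmb10 ratio separated Cort_CON from EtOH_CON only narrowly, with -4.372 in p27 of Cort_CON and -4.363 in p12 of EtOH_CON. The other ratios overlapped in at least 1 library. Such a ratio joins reads from transcript ends of different genes and does not measure subunit proportions.

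**Figure D5:**
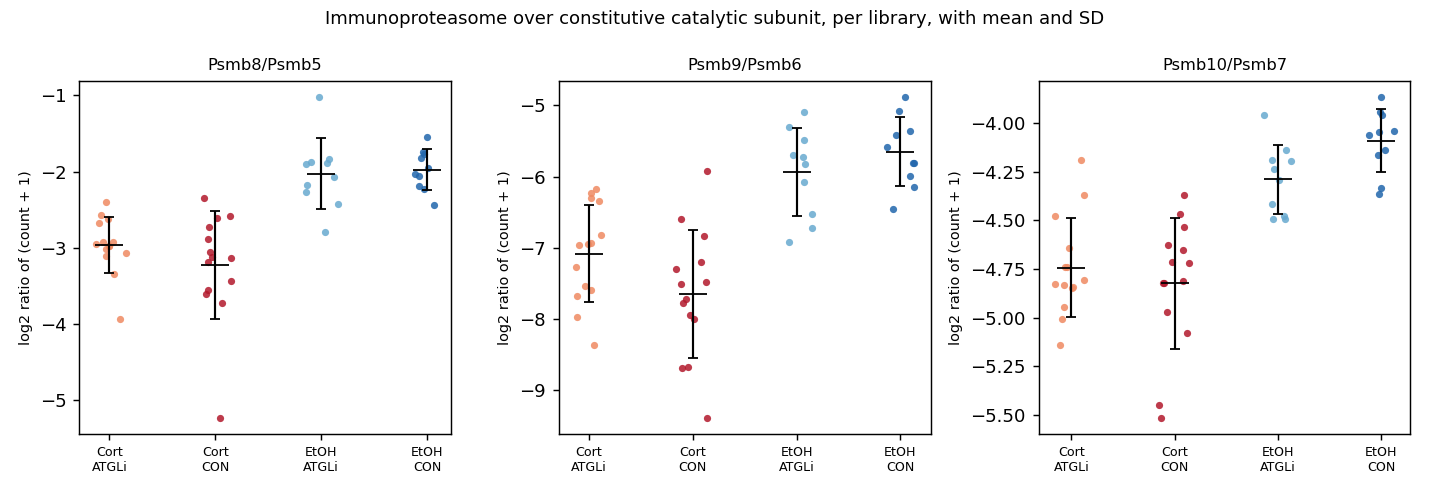
Log2 ratio of counts (each + 1) of each immunoproteasome gene over the constitutive subunit it replaces, in each library (points), by group, with mean and SD (bars). The medians are lower in both corticosterone groups for all 3 pairs, for Psmb9/Psmb6 at -6.96 in Cort_ATGLi and -7.62 in Cort_CON against -5.77 in EtOH_ATGLi and -5.70 in EtOH_CON.

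Some markers of other cell types were lower in the same comparisons, and their part in the immunoproteasome result was not tested. All counts of markers here stand beside 18.9% of all genes higher and 19.5% lower on the control diet. On atglistatin the share of all genes was 15% in each direction. Of 12 leukocyte and macrophage markers, 6 were lower and 1 (Cd163) higher on the control diet, and 5 lower and 1 higher on atglistatin. Their summed level ran from 80.6 to 152 CPM in Cort_CON, against 104 to 191 CPM in EtOH_CON, and from 78.1 to 284 CPM in Cort_ATGLi, against 103 to 159 CPM in EtOH_ATGLi. Over these 12 markers the median log2 fold change was -0.40 on the control diet and -0.19 on atglistatin. Ptprc (CD45), which marks leukocytes and had the smallest p of the 12 on both diets, fell with a log2 difference of -1.72 (SE 0.27, adjusted p = 8.88e-07) on the control diet and a log2 difference of -1.62 (SE 0.28, adjusted p = 6.37e-06) on atglistatin. Of 10 endothelial markers 5 were lower and 1 higher on each diet, with sums of 129 to 286 CPM in Cort_CON, 191 to 238 CPM in EtOH_CON, 152 to 264 CPM in Cort_ATGLi and 151 to 259 CPM in EtOH_ATGLi. Of 10 markers of fibro-adipogenic progenitors, the fibroblast-like cells of muscle, 9 were lower on each diet, with sums of 888 to 1753 CPM in Cort_CON, against 1899 to 2619 CPM in EtOH_CON, and 1039 to 1336 CPM in Cort_ATGLi, against 1429.7 to 2443 CPM in EtOH_ATGLi. Beside the rises of cap and core genes, muscle fibre markers had 4 higher and 1 lower of 10 on the control diet and 3 higher and 1 lower on atglistatin, and erythroid markers had 4 and 1 higher of 5. Tendon markers had 3 lower and 1 higher of 5, and 4 lower and 1 higher, on the control and atglistatin diets. Smooth muscle and pericyte markers had 4 and 2 lower of 5, Schwann cell markers 2 and 0 lower of 5, and adipocyte markers 1 higher and 1 lower of 6, and 2 higher. No marker of any of these lists was at 0 across a group.

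Among the activators, Psme1 fell on both diets and Psme4 on the control diet. Psme1 (chr14:55578123-55581529, plus strand) encodes the alpha subunit of the interferon-inducible ring that caps the core. It was at 15.9, 20.5 and 28.7 CPM in Cort_CON, against 21.2, 33.3 and 35.9 CPM in EtOH_CON, a log2 difference of -0.54 (SE 0.10, adjusted p = 5.85e-06). In Cort_ATGLi it was at 14.4, 19.4 and 26.7 CPM, against 23.2, 28.5 and 35.6 CPM in EtOH_ATGLi, a log2 difference of -0.59 (SE 0.10, adjusted p = 1.87e-06). All 14 libraries of both corticosterone groups lay below the mean of their vehicle group, with overlapping ranges. Psme1 shares its 3′ end with Emc9 on the other strand. Psme2 encodes the beta subunit of the same ring, and reads of it and of its retrocopy Psme2b could be mixed. It was at 9.43, 12.3 and 17.0 CPM in Cort_CON, against 11.5, 13.8 and 16.8 CPM in EtOH_CON, a log2 difference of -0.15 (SE 0.09, adjusted p = 0.203). On atglistatin it was at 9.16, 11.4 and 15.2 CPM in Cort_ATGLi, against 10.005, 13.2 and 15.3 CPM in EtOH_ATGLi, a log2 difference of -0.20 (SE 0.09, adjusted p = 0.0943), and it passed there without p08 of EtOH_ATGLi or without p24 or p41 of Cort_ATGLi (adjusted p down to 0.0445). At a mean of at least 5 CPM Psme2 was also lower on atglistatin (-0.25, adjusted p = 0.0224).

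Psme4 (chr11:30771726-30880361, plus strand) encodes the large activator PA200, known for the turnover of acetylated histones. It was at 154, 214 and 308 CPM in Cort_CON, against 241, 262 and 302 CPM in EtOH_CON, a log2 difference of -0.35 (SE 0.08, adjusted p = 1.38e-04). In Cort_CON, 13 of 14 libraries lay below the EtOH_CON mean. On atglistatin it was at 194, 229 and 271 CPM in Cort_ATGLi, against 233, 259 and 278 CPM in EtOH_ATGLi, a log2 difference of -0.12 (SE 0.08, adjusted p = 0.256). The difference between diets, 0.24 (SE 0.11), did not pass (adjusted p = 0.872), so the fall is not shown to differ between them. Psme3, the nuclear form of the ring, had 0.12 (adjusted p = 0.143) on the control diet and 0.11 (adjusted p = 0.183) on atglistatin. Without p01 of EtOH_CON, its highest library there, Psme3 passed on the control diet (0.18, adjusted p = 0.0158).

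None of the 8 assembly factors and inhibitors passed on either diet over all 48 libraries with the scaling and filter used throughout, with 1 and 2 of them at an unadjusted p under 0.05 on the control and atglistatin diets. They comprise the base chaperones Psmd5, Psmd9 and Psmd10, the inhibitor Psmf1, and the core assembly chaperones Psmg1, Psmg2, Psmg3 and Psmg4. Log2 fold changes ran from -0.21 (Psmd9) to 0.14 (Psmg4) on the control diet and from -0.23 (Psmd9) to 0.20 (Psmd10) on atglistatin. Psmd9 came nearest to the threshold, with adjusted p = 0.0905 and 0.0690, and passed when any 1 of 2 libraries was left out on the control diet and any 1 of 7 on atglistatin (adjusted p down to 0.0438 and 0.0240). At a mean of at least 5 CPM Psmd9 was lower on both diets (-0.26, adjusted p = 0.0233 on the control diet and -0.28, adjusted p = 0.0198 on atglistatin). Psmd5 had -0.20 on atglistatin (adjusted p = 0.135) and was lower without p41 of Cort_ATGLi (-0.26, adjusted p = 0.0256). Their summed level was 96.2, 108 and 122 CPM (lowest, median, highest) in Cort_CON, against 99.5, 111 and 122 CPM in EtOH_CON, and 90.03, 106 and 125 CPM in Cort_ATGLi, against 95.8, 110.1 and 116 CPM in EtOH_ATGLi. Psmc3ip, with a mean of 1.43 CPM over all libraries and a 3′ end shared with Mlx, did not pass on either diet, although by voom it was lower on atglistatin (adjusted p = 0.0442).

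Atglistatin against the control diet called no proteasome gene, either in vehicle mice or in corticosterone mice. In vehicle mice (EtOH_ATGLi against EtOH_CON), 0 of 47 members passed by edgeR, by DESeq2 or by voom, beside 0.0238% of all genes by edgeR (0.0159% higher, 0.00794% lower), and 1 member had an unadjusted p under 0.05, as did 6.66% of all genes. Member log2 fold changes ran from -0.22 (Psmb9) to 0.28 (Psmc3ip). In corticosterone mice (Cort_ATGLi against Cort_CON), 0 of 47 passed by the same tools, beside 1.6% of all genes (0.667% higher, 0.929% lower), and 9 had an unadjusted p under 0.05, as did 12.4% of all genes. The labels call 9 of the 14 Cort_CON mice diabetic and none of the Cort_ATGLi mice. Diet and diabetic state are therefore partly mixed in this comparison. The 5 nondiabetic Cort_CON mice were not set alone against Cort_ATGLi, so the part of each was not tested. Psmc2 had a log2 difference of 0.19 (SE 0.06, adjusted p = 0.111) and Psmd8 a log2 difference of 0.28 (SE 0.10, adjusted p = 0.136). Both passed, with Psmd11, when p45 of Cort_CON was left out (adjusted p = 0.0217 for Psmc2, 0.0231 for Psmd8 and 0.0247 for Psmd11), and that library had the highest level of Psmc2, Psmd8 and Psmd11 in Cort_CON. Psme4 passed without p35 of Cort_CON (0.24, adjusted p = 0.0356). Without scaling factors 4 members passed (Psmb1, Psmb2, Psmc2 and Psmd8), and there the median of all genes was 0.08. No member passed the interaction of both treatments (0 of 47 by each tool, beside 0.0397% of all genes, 0.0238% positive and 0.0159% negative). At an unadjusted p under 0.05 there were 2 members, and 5.52% of all genes.

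No member passed between diabetic and nondiabetic Cort_CON mice. In a fit with Cort_CON split into 9 diabetic and 5 nondiabetic mice, 0 of 47 members passed by edgeR, DESeq2 or voom, beside 0% of 13084 genes, and 5 members had an unadjusted p under 0.05, as did 4.9% of all genes. Of the 17 cap genes 16 had a positive log2 fold change, beside 50.7% of all genes, but cap genes varied together between mice and are not separate observations. Psmd4 was at 234, 333 and 493 CPM in diabetic mice, against 218, 233 and 305 CPM in nondiabetic ones, a log2 difference of 0.39 (SE 0.16, adjusted p = 0.947). Psmd8 was at 410.1, 686 and 933 CPM in diabetic mice, against 405, 558 and 609.7 CPM in nondiabetic ones, a log2 difference of 0.33 (SE 0.13, adjusted p = 0.947). With the 5 nondiabetic mice alone as Cort_CON, 9 members were called against EtOH_CON, 4 higher and 5 lower, beside 10.5% of all genes higher and 11.4% lower in that comparison. Psmc5, Psmc2, Psmd8 and Psmb3 were higher, at 0.34, 0.29, 0.34 and 0.25 on the log2 scale, and Psme1, Psme4, Psmb8, Psmb9 and Psmb10 were lower, at -0.48, -0.43, -1.32, -1.93 and -0.60. The other 10 members called higher in all Cort_CON mice kept a positive sign with 5 mice and did not pass. With the 9 diabetic mice alone, 15 members were higher and 5 lower, beside 16.7% and 17.9% of all genes.

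Constitutive cap and core genes varied together between mice of the same group. Over the 48 libraries, with group means taken out, the 465 pairs of 31 constitutive genes had a median Pearson r of 0.43 (429 positive; 0.43 without p01 and p41). The 3 pairs of immunoproteasome genes had r from 0.12 to 0.18, at much lower counts, and the 93 pairs across these sets a median of 0.05. All points share libraries, their depth and their scaling, and pairs of other genes were not set beside them. Psma7 followed the mean of the other constitutive genes most closely (r = 0.93), with Psmd6 (0.87) and Psmb3 (0.83) next, and Psmd3 (0.16) and Psma5 (0.23) followed it least. Among genes that are not members, the 8 most like this mean were Sod1 (r = 0.87), Ttc1 (0.86), Rps28 (0.86), P4hb (0.85), Dctn2 (0.84), Rps20 (0.84), Rpl32 (0.82) and Rps21 (0.82), over 48 libraries. Without p01 and p41 Rps20 ranked 10 and Rps21 ranked 17, and the other 6 stayed among the 8 highest. They encode a superoxide dismutase, a tetratricopeptide protein, a protein disulfide isomerase, a dynactin subunit and ribosomal proteins.

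Genes that work with the proteasome were read against the shares of all genes called, 38.4% on the control diet (18.9% higher, 19.5% lower) and 30% on atglistatin (15% each way). There were 19 measured partners (assembly, ubiquitin receptor and shuttle genes). On the control diet 3 were higher and 2 lower, and on atglistatin 7 were higher and 0 lower. The median log2 fold change was 0.03 on both diets. With both directions pooled, the shares called were below or near those of all genes. By direction on atglistatin, the 7 of 19 higher stood above the 15% of all genes higher, and the 0 lower stood below the 15% lower. Uchl5, a deubiquitinase of the cap, was higher on both diets (27.7 CPM in Cort_CON and 22.4 CPM in EtOH_CON, 0.31 on the log2 scale; 26.2 CPM in Cort_ATGLi and 22.1 CPM in EtOH_ATGLi, 0.24). Zfand5, a proteasome-binding zinc finger protein of atrophying muscle, rose on the control diet (0.39, adjusted p = 9.48e-04), and Ufd1, a cofactor of the segregase Vcp, fell there (-0.34, adjusted p = 1.65e-04). On atglistatin neither passed. With each library left out in turn, Zfand5 had 0.02 to 0.07 there and Ufd1 -0.15 to -0.10. No partner passed the interaction, so neither change is shown to differ between diets. Txnl1, a thioredoxin bound to the cap, was higher in Cort_ATGLi than in Cort_CON (0.23, adjusted p = 0.0292).

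Of 9 tested regulators 5 were higher and 1 lower on the control diet, and 4 higher and 1 lower on atglistatin. The shares of all genes were 18.9% higher and 19.5% lower on the control diet, and 15% each way on atglistatin. Foxo1 and Foxo3, which drive the muscle atrophy programme, had the largest rises. Foxo1 averaged 176 CPM in Cort_CON and 23.4 CPM in EtOH_CON, a log2 difference of 2.91 (SE 0.17, adjusted p = 5.83e-19), and 138 CPM in Cort_ATGLi and 28.7 CPM in EtOH_ATGLi, a log2 difference of 2.26 (SE 0.17, adjusted p = 3.11e-15). Foxo3 had log2 fold changes of 1.29 on the control diet and 1.02 on atglistatin. Nfe2l1 (Nrf1), which induces proteasome genes when the proteasome is inhibited, averaged 262 CPM in Cort_CON and 214 CPM in EtOH_CON, a log2 difference of 0.29 (SE 0.06, adjusted p = 9.14e-05), and 257 CPM in Cort_ATGLi and 218 CPM in EtOH_ATGLi, a log2 difference of 0.24 (SE 0.06, adjusted p = 0.00161). Nfe2l2 (Nrf2) rose by 0.49 on the log2 scale on the control diet and 0.49 on atglistatin. Irf1, an interferon-induced activator of immunoproteasome genes, averaged 5.44 CPM in Cort_CON and 10.2 CPM in EtOH_CON, a log2 difference of -0.89 (SE 0.15, adjusted p = 2.79e-06), and 6.16 CPM in Cort_ATGLi and 10.2 CPM in EtOH_ATGLi, a log2 difference of -0.72 (SE 0.15, adjusted p = 1.36e-04). Ddi2, the protease that activates Nfe2l1, was higher in Cort_ATGLi than in Cort_CON (0.34, adjusted p = 0.0251).

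Of 8 genes of ubiquitin supply 3 were higher on the control diet and 2 on atglistatin, and none was lower. Beside them 18.9% of all genes were higher on the control diet and 15% on atglistatin. With both directions pooled, the shares called were near those of all genes. Ubb, which encodes polyubiquitin, averaged 596 CPM in Cort_CON and 425 CPM in EtOH_CON, a log2 difference of 0.49 (SE 0.07, adjusted p = 2.65e-07), and 677 CPM in Cort_ATGLi and 459 CPM in EtOH_ATGLi, a log2 difference of 0.56 (SE 0.07, adjusted p = 1.90e-08). All corticosterone libraries lay above all vehicle libraries of the same diet for Ubb. Of 10 antigen-processing genes 2 were higher and 5 lower on each diet, beside 19.5% of all genes lower on the control diet and 15% on atglistatin. The MHC class I genes H2-D1 and H2-K1 and their partner B2m had log2 fold changes of -0.67, -0.67 and -0.62 on the control diet and -0.46, -0.46 and -0.45 on atglistatin. H2-D1 and H2-K1 are close paralogs, so reads could be split between them. Tap1, the peptide transporter gene next to Psmb9 and overlapping it at the 5′ end, averaged 0.900 CPM in Cort_CON and 2.61 CPM in EtOH_CON (lower, adjusted p = 4.15e-06), and 1.42 CPM in Cort_ATGLi and 2.29 CPM in EtOH_ATGLi, a log2 difference of -0.68 (SE 0.25, adjusted p = 0.0336). The atglistatin call of Tap1 was lost without any 1 of 6 libraries: p10, p13 or p14 of EtOH_ATGLi, or p18, p24 or p38 of Cort_ATGLi (adjusted p up to 0.136). The chaperones Calr and Canx were the 2 that rose, at 0.48 and 0.26 on the control diet and 0.50 and 0.24 on atglistatin.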

How the data were processed

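Libraries of mixed gastrocnemius RNA were made with a Lexogen QuantSeq kit, which primes at transcript ends, and per the labels' protocols sequenced as forward reads of 50 bp. The deposited table holds raw read counts per gene. The submitters' processing notes name the build GRCm38, R 3.6.1 and DESeq2 1.24.0. No source read here names the aligner, counter, strand setting or annotation. In 47 of 48 libraries every deposited count was even; in p13 of EtOH_ATGLi 49.6% were odd, and the cause is not given. The smallest gene total was 144, and 31 gene IDs matched no symbol. Intervals and p-values cover the spread between libraries, each taken as 1 mouse, and reads without molecular identifiers are not independent molecules.

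Genes were kept by filterByExpr (minimum count 10, minimum total 15), scaled by TMM and tested in edgeR 4.0.16 (R 4.3.3) with the robust quasi-likelihood test, two-sided, on all 48 libraries in 1 fit of 4 groups, with Benjamini-Hochberg adjustment over all genes. Adjusted p values are from this test, SE is that of the log2 fold change, and the test was tried on simulated data. Gene spans are from GENCODE M21 and windows from RefSeq, both GRCm38. Alternatives were RLE or no scaling, no filter, a mean of at least 5 CPM, DESeq2 1.42.0, limma 3.58.1 voom, halved counts, only the groups compared, diabetic or nondiabetic mice alone, the replicate block and each library left out. Leaving out p01, p41 and p13 together was added after seeing the data. The members and lists were chosen with earlier results of these data known. Full values were given for the cutting subunits, Psme1, Psme2 and Psme4, and the 5 members with the smallest p in each direction of a corticosterone comparison. Companion genes were named from those past the threshold with the smallest p, at most 5 a list and comparison; Ddi2, Canx, Cd163 and Ptprc were chosen after their values were seen. The authors' normalized table was not used. All 272 pairs of libraries within groups differed beyond counting noise, with a chi-square per degree of freedom of at least 7.59. Some companion genes counted in the lists are not reported here by name.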

Additional observations from a re-analysis of the deposited data

Results flagged for a closer look

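Of 96 groups of 10 libraries tested (each member in each vehicle group), 14 had 1 library whose gap to its neighbour exceeded Dixon's 95% critical share of the group's range, and chance gives about 1 in 20. Library p01 of EtOH_CON accounted for 9 of them. It was lowest for Psmc3 (138 CPM, next 204), Psmd4 (144, next 198), Psmb4 (143, next 171), Psmd11 (58.5, next 77.2), Psmd13 (55.7, next 76.8), Psma4 (30.7, next 74.7) and Psmd7 (128, next 210), and highest for Psmd3 (237, next 186) and Psme3 (52.1, next 39.9). Library p12 of EtOH_CON was highest for Psmg1 (10.4 CPM, next 7.58) and Psmb7 (305, next 265), and p04 of EtOH_CON for Psmb8 (9.4, next 6.92). In EtOH_ATGLi, p06 was highest for Psmb4 (212 CPM, next 195) and p14 for Psmb8 (9.9, next 6.6). What sets p01 apart was not tested.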

How the results depend on the processing

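The control diet counted 19 called members (14 higher, 5 lower) and the atglistatin diet 20 (16 higher, 4 lower). Under RLE scaling, no filter, DESeq2, voom, halved counts and only the groups compared these were 17 to 19 and 19 to 21. Without scaling factors there were 18 and 17, and Cort_ATGLi against Cort_CON had 4. At a mean of at least 5 CPM there were 16 and 16 of 44 members tested, and Psmb8 and Psmb9 were not among those tested. With nondiabetic Cort_CON mice alone there were 9, from 5 mice. With 1 library left out the counts ran from 16 to 20 on the control diet, from 17 to 21 on atglistatin, and from 0 to 3 for Cort_ATGLi against Cort_CON; in the other comparisons they were 0. Without p01, p41 and p13 together there were 19 (13 higher, 6 lower) on each diet.

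Replicate numbers are shared by 2 pairs of Cort_ATGLi and EtOH_ATGLi libraries and by 4 pairs of vehicle libraries. Deviations of same-numbered libraries correlated at -0.06 to 0.15 over 12592 genes, so the numbers were not taken as pairs. With the replicate block, 6 members were called from the 4 libraries (3 higher, 3 lower), as many as without the block in the same libraries, 6; in the 8 vehicle libraries 0 were called either way. The other comparisons share too few numbers for a block. Psmb8 and Psmb9 rest on low counts, so small differences between their groups were not detectable at this depth.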
